A study of Homo sapiens with 12 samples.

Results

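Chemokine genes encode small secreted or membrane-bound proteins that guide the movement of leukocytes and, in tumours, of other cells. Most act through G protein-coupled receptors on the responding cell. CXCL1, CXCL2, CXCL3 and CXCL8 attract neutrophils mainly through CXCR2, and CXCL10 attracts activated T cells through CXCR3. CXCL16 binds CXCR6, CCL2 draws monocytes through CCR2, CCL20 binds CCR6, and CCL28 binds CCR10 and CCR3. Several of them are textbook targets of NF-κB, the family of transcription factors that the cytokine TWEAK activates through its receptor Fn14, encoded by TNFRSF12A. CXCL14 has no agreed classical receptor and is made mainly by epithelial cells.

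The 10 genes described here, CXCL1, CXCL2, CXCL3, CXCL8, CXCL10, CXCL14, CXCL16, CCL2, CCL20 and CCL28, were taken by name from the 62696 gene identifiers in the deposited count tables of SKBR3 and of MDA-MB-453, both breast cancer cells of the HER2 subtype. Each line was sequenced as 3 untreated and 3 TWEAK-treated replicates, which makes 12 RNA-seq libraries of poly-A RNA. For treatment, cells that had been starved for 8 h in Opti-MEM received TWEAK at 10 ng/ml, again after 24 h, and were collected after 48 h. In the sample labels this text also stands under the untreated replicates, whose own handling is not described. The libraries show transcript levels in cultured tumour cells, not secreted protein.

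The libraries held 24773003 to 35208304 counts each. ERBB2, which encodes HER2, reached 7260 ± 268 CPM (counts scaled to a common library size, mean ± SD, n = 3) in untreated SKBR3 and 932 ± 17.5 CPM in untreated MDA-MB-453. Keratin genes KRT8, KRT18 and KRT19 were expressed in both lines. They were lower in untreated MDA-MB-453 than in untreated SKBR3, with log2 fold changes of -3.06, -1.94 and -2.54. CDH1, which encodes E-cadherin, had 1 to 7 counts in SKBR3 libraries against 1158 to 1772 in MDA-MB-453. Of 9 markers of the lines, 8 were tested in each, and KRT19 (log2 fold change 0.32) and the oestrogen receptor gene ESR1 (1.33) rose with TWEAK in SKBR3 (6.60% of all tested genes were called higher and 3.82% lower there) and 0 changed in MDA-MB-453 (1.29% and 0.208%). The standard errors were 0.09 for KRT19 and 0.27 for ESR1, with edgeR adjusted p of 0.0608 and 0.0112. ESR1 was not among the markers tested in MDA-MB-453. The untreated cells of both lines expressed the TWEAK receptor gene TNFRSF12A at 63.6 ± 5.50 CPM (SKBR3) and 54.6 ± 0.877 CPM (MDA-MB-453). TWEAK-treated replicate 2 stood apart from the other treated replicates in both lines. A chi-square test of its counts against those replicates, divided by the degrees of freedom, gave 21.1 and 23.7 for SKBR3 (1.78 to 5.75 for all pairs without it) and 10.1 and 5.40 for MDA-MB-453 (2.09 to 2.89). Some values are therefore also given without it, but the marker genes of the lines and of other cells were not recomputed in this way.

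Of the 8 genes of the 10 with an entry among the RefSeq promoters of assembly GRCh38.p14 (250 bases before to 50 bases after each start), 5 held the letters GGAATTTCC on either strand. These letters are a form of the NF-κB binding motif and were taken from the CXCL8 promoter itself. These were the neutrophil-attracting genes CXCL1, CXCL2, CXCL3 and CXCL8 and the interferon-inducible CXCL10, all on chromosome 4, and their stretches are printed because the treatment acts on NF-κB. Each stretch has 30 bases, is written 5′ to 3′ on the strand of its gene and shows the motif in capitals, as GGAATTTCC or, for CXCL10, as its reverse complement GGAAATTCC. In the order below the motif began 91, 78, 78, 77 and 176 bases before the start in the promoter entry. That start can differ from the gene coordinates given further on. The CXCL3 stretch lies inside the span printed for its gene, and the CXCL8 motif lies closer to the printed gene start.
CXCL8, chr4:73740468-73740497, plus strand: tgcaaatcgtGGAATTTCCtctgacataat
CXCL1, chr4:73869305-73869334, plus strand: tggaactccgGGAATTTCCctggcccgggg
CXCL3, chr4:74038748-74038777, minus strand: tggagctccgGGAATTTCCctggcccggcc
CXCL2, chr4:74099253-74099282, minus strand: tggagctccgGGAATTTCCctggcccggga
CXCL10, chr4:76023654-76023683, minus strand: aggagcagagGGAAATTCCgtaacttggag

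The same letters were found in 162 of 35116 RefSeq promoters, or 0.461%. The promoters of CCL20, CXCL14 and CCL28, the last with 2 entries, did not hold them, which says only that these letters are not in those windows. CXCL16 and CCL2 had no promoter entry and were not searched. The match is a feature of the sequence and does not show binding in these cells. For CXCL8 it was fixed in advance, since the letters come from its promoter. The stretches of CXCL1, CXCL2 and CXCL3 are near copies, so their matches are not independent of each other. Nothing is therefore read from the share of these genes with a match.

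A gene was counted as detected in a line where at least 1 of its 6 libraries held more than 3 counts, a limit that corresponds to 0.0852 to 0.121 CPM depending on the library. In SKBR3, 8 of the 10 genes were detected, and CXCL2 and CXCL3 stayed at 0 to 2 counts. In MDA-MB-453, 4 were detected, namely CXCL8, CXCL10, CXCL16 and CCL28. Of the 6 others, CXCL1, CXCL3 and CXCL14 had 0 counts in every library of that line and CXCL2, CCL2 and CCL20 had 0 to 2. At 0 counts, levels up to the limit of 3 counts per library remain possible, so these genes were not detectable at this depth. The limits cover counting error only.

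**Figure D1:**
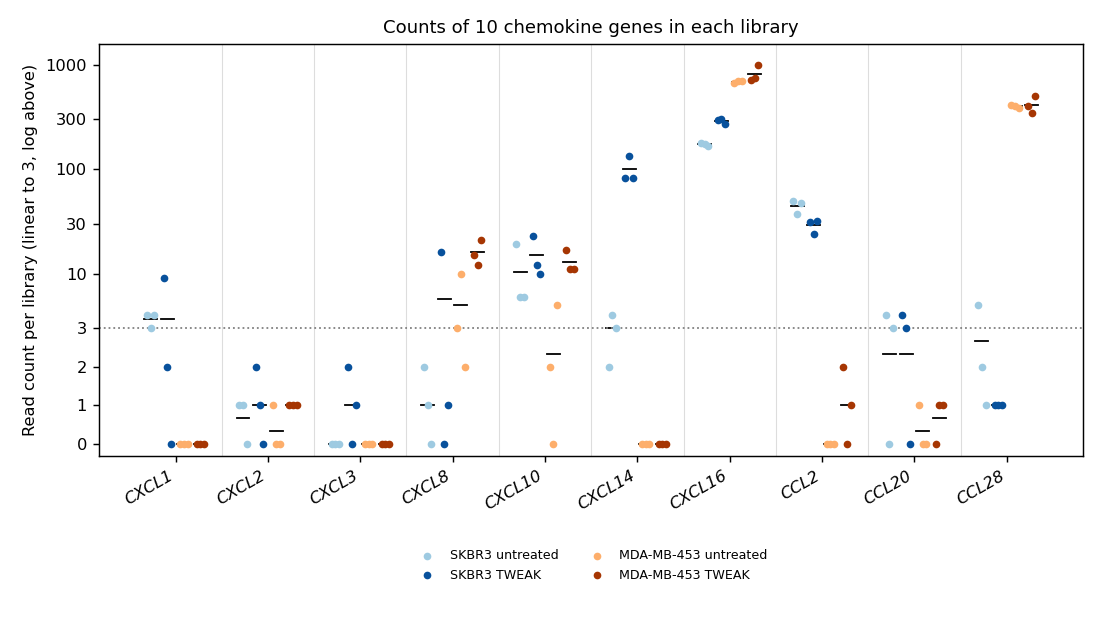
Read counts of the 10 chemokine genes in each of the 12 libraries, with the vertical axis linear up to 3 counts (dotted line, the detection limit) and logarithmic above; points are replicates and black bars group means. CXCL14 lay at 2 to 4 counts in untreated and 83 to 133 in TWEAK-treated SKBR3, while CCL28 lay at 346 to 499 counts in MDA-MB-453 and at most 5 in SKBR3.

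The question of the main comparison was which of these genes responded to TWEAK in each HER2 line. In SKBR3, CXCL14 rose 32.9-fold and CXCL16 rose 1.72-fold, and no chemokine gene of the 10 fell past the threshold. In MDA-MB-453, 0 of the 10 passed it. Genes were called where edgeR's quasi-likelihood test gave a p, adjusted by Benjamini-Hochberg over all genes tested in the line, no higher than 0.1. The filter on low counts left 4 of the 10 to test in SKBR3 (CXCL10, CXCL14, CXCL16 and CCL2) and 3 in MDA-MB-453 (CXCL8, CXCL16 and CCL28). The 2 called of 4 tested in SKBR3 stand beside 6.60% of all 15661 tested genes called higher and 3.82% called lower. In MDA-MB-453 the shares over all 14929 tested genes were 1.29% higher and 0.208% lower, or 192 and 31 genes. These depended on single libraries. Without TWEAK-treated replicate 2, 1003 genes were called higher and 1098 lower of 15216, and without untreated replicate 3, 120 and 11 of 15171. CXCL14 in SKBR3 and CXCL8 in MDA-MB-453 passed the filter through their treated groups alone and so had to differ, which is why nothing is read from these shares about the genes as a group. In bulk RNA, fewer cells with a transcript and less of it per cell cannot be told apart.

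CXCL14 (ENSG00000145824), a chemokine of epithelia, lies at chr5:135570679-135579279 on the minus strand of hg38. It had 2, 4 and 3 counts in the untreated SKBR3 replicates and 83, 133 and 83 in the TWEAK-treated replicates, or 0.115 ± 0.0449 and 3.87 ± 1.08 CPM (mean ± SD, n = 3). The groups were far apart, with the highest treated value in replicate 2. The log2 fold change was 5.04 ± 0.36 (SE), with an edgeR adjusted p of 6.76e-06, and 4.79 without TWEAK-treated replicate 2. Since the untreated group held 9 counts in all, the ratio of summed counts, scaled by library size, is also given: 34.3, with an exact 95% counting interval of 17.8 to 75.7. This and all counting intervals below leave out the spread between replicates. CXCL14 shares 4.81% of its exonic bases with a lncRNA and 5.47% with SLC25A48 on the opposite strand, which had 0 to 1 and 0 counts.

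MDA-MB-453 held 0 counts of CXCL14 in all 6 libraries. With TWEAK, CXCL14 was therefore at least 39.3-fold higher in SKBR3 than in MDA-MB-453, taking 3 counts per library as the limit in the latter. The interaction test of line and treatment in edgeR gave no usable estimate for CXCL14, since the fold change in MDA-MB-453 is undefined at 0 counts (adjusted p = 0.9999), while DESeq2 gave an adjusted p of 0.0732.

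CXCL16 (ENSG00000161921), whose protein is made as a transmembrane chemokine that can be shed and also takes up oxidised lipoprotein, lies at chr17:4733533-4739928 on the minus strand. In SKBR3 it had 6.14, 6.94 and 6.56 CPM in untreated and 11.4, 11.6 and 10.8 CPM in TWEAK-treated replicates. All 3 treated values were above all untreated ones, and the replicates of each group lay close together. The log2 fold change was 0.78 ± 0.09 (SE), with an edgeR adjusted p of 0.000276, and 0.77 without TWEAK-treated replicate 2.

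In MDA-MB-453, untreated replicates had 26.2, 26.8 and 27.1 CPM of CXCL16 and treated replicates 28.7, 29.2 and 28.2 CPM. The groups did not overlap here either, but the difference was small, with a log2 fold change of 0.10 ± 0.05 (SE) and a 95% interval of 0.01 to 0.20. The edgeR p was 0.0553 unadjusted and 0.486 adjusted. The interval leaves out 0 only because it is too narrow for so few libraries, and no change is read from it. Tested over all 12 libraries as the interaction of line and treatment, the log2 fold change of CXCL16 was smaller in MDA-MB-453 by a difference of -0.69 ± 0.09 (SE), with an edgeR adjusted p of 0.000292. CXCL16 was the 1 gene called of the 6 of the 10 that entered this test, where 3.37% of all 17201 tested genes were called. The difference was -0.66 without TWEAK-treated replicate 2 of SKBR3 and -0.70 without that of MDA-MB-453. CXCL16 shares 2.72% of its exonic bases with MED11 and 3.44% with ZMYND15 on the opposite strand, which had 141 to 335 and 13 to 36 counts, and the strand setting of the counting is not stated.

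CCL2 (ENSG00000108691), which attracts monocytes and lies at chr17:34255274-34257208 on the plus strand, was detected only in SKBR3 of the lines. Its counts were 50, 37 and 47 in untreated and 31, 24 and 32 in TWEAK-treated replicates, or 1.68 ± 0.198 and 1.13 ± 0.183 CPM (mean ± SD, n = 3). Every treated value was below every untreated value. The log2 fold change of -0.58 ± 0.20 (SE) missed the threshold with an edgeR adjusted p of 0.132, and over all 13 alternatives the adjusted p stayed between 0.102 and 0.335. Without TWEAK-treated replicate 2 the log2 fold change was -0.44. In MDA-MB-453, CCL2 had 0 counts in each untreated library and 2, 0 and 1 in the treated ones.

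CXCL10 (ENSG00000169245), the interferon-inducible attractant of T cells at chr4:76021118-76023497 on the minus strand, had 19, 6 and 6 counts in untreated and 23, 12 and 10 in TWEAK-treated SKBR3 replicates. The groups overlapped, and replicate 1 was the highest in each. The log2 fold change in SKBR3 was 0.58 ± 0.46 (SE), with a 95% interval of -0.32 to 1.48 and an edgeR adjusted p of 0.545. It lay between 0.15 without TWEAK-treated replicate 1 and 1.28 without untreated replicate 1, and without untreated replicates 2 and 3 it was 0.35 in each case.

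In MDA-MB-453, CXCL10 had 2, 0 and 5 counts without and 17, 11 and 11 counts with TWEAK. Here the groups did not overlap, but the gene did not pass the filter on low counts. Its ratio of summed counts was 5.08, with an exact 95% counting interval of 2.25 to 13.5 that leaves out the spread between replicates. In the alternative without a filter, where 0.911% of the 33154 genes were called higher in that line, the fitted log2 fold change of CXCL10 was 2.30 with an edgeR adjusted p of 0.00308. The difference between the lines for CXCL10 was 1.71 ± 0.88 (SE) on the log2 scale, higher in MDA-MB-453, with an edgeR adjusted p of 0.524. It moved from 1.01 without untreated SKBR3 replicate 1 to 2.83 without untreated MDA-MB-453 replicate 3, and neither was called.

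CXCL8 (ENSG00000169429), which encodes interleukin-8, lies at chr4:73740519-73743716 on the plus strand. In MDA-MB-453 it had 3, 10 and 2 counts in untreated and 15, 12 and 21 in TWEAK-treated replicates, or 0.192 ± 0.165 and 0.557 ± 0.0755 CPM (mean ± SD, n = 3). The groups did not overlap, with untreated replicate 2 close to treated replicate 2. The log2 fold change was 1.52 ± 0.45 (SE), with an unadjusted p of 0.00436 and an edgeR adjusted p of 0.196, above the threshold. Whether CXCL8 was called depended on the libraries and the setting: the edgeR adjusted p was 0.0451 without untreated replicate 2 (log2 fold change 2.48), 0.0288 without TWEAK-treated replicate 2 (1.62) and 0.0334 without a filter on low counts (1.52). It was 0.645 without untreated replicate 3 (1.15), 0.567 without TWEAK-treated replicate 3 and 0.796 with all 12 libraries in 1 fit.

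In SKBR3, CXCL8 had 2, 1 and 0 counts in untreated and 16, 0 and 1 counts in treated replicates. All but 1 of the 17 counts with TWEAK came from replicate 1. The ratio of summed counts, 5.85 with a 95% counting interval of 1.69 to 31.1, and the edgeR adjusted p of 0.0787 for CXCL8 without a filter thus rest on that library. The same library held the highest counts of CXCL1 (9) and CXCL10 (23) among the treated SKBR3 replicates.

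The neutrophil attractants CXCL1, CXCL2 and CXCL3 lie near CXCL8 on chromosome 4, at chr4:73869393-73871308, chr4:74097040-74099196 and chr4:74036589-74038807. CXCL1 had 4, 3 and 4 counts in untreated and 9, 2 and 0 in TWEAK-treated SKBR3 replicates, with a ratio of summed counts of 1.03 and an exact 95% counting interval of 0.406 to 2.62. Its treated replicates spread to both sides of the untreated ones. CXCL2 had 1, 1 and 0 counts against 2, 1 and 0 in SKBR3 and 1, 0 and 0 against 1, 1 and 1 in MDA-MB-453. CXCL3 had counts in 2 of the 12 libraries, the TWEAK-treated SKBR3 replicates 1 (2 counts) and 3 (1 count). These levels are too low to show a response. The coding sequences of the 3 genes are close copies, with 90.7% to 94.4% of 324 bases identical and identical runs of up to 97 bases, so the few reads could have been assigned to the wrong copy or not counted at all.

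CCL20 (ENSG00000115009), the CCR6 ligand at chr2:227805739-227817564 on the plus strand, had 4, 0 and 3 counts in untreated and 4, 3 and 0 in treated SKBR3 replicates, and 0 or 1 in MDA-MB-453. Its ratio of summed counts in SKBR3 was 1.03, with an exact 95% counting interval of 0.309 to 3.45.

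CCL28 (ENSG00000151882), a chemokine of mucosal epithelia at chr5:43376645-43412391 on the minus strand, separated the lines. MDA-MB-453 had 16.0, 15.4 and 14.9 CPM of CCL28 in untreated and 16.2, 13.6 and 14.2 CPM in treated replicates. The groups overlapped, with a log2 fold change of -0.08 ± 0.07 (SE), a 95% interval of -0.22 to 0.07 and an edgeR adjusted p of 0.735. In SKBR3 the counts of CCL28 were 5, 2 and 1 without and 1, 1 and 1 with TWEAK, with a ratio of summed counts of 0.387 and an exact 95% counting interval of 0.0661 to 1.61.

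The replicate groups of 3 of the 4 tested genes did not overlap in SKBR3 (CXCL14, CXCL16 and CCL2), where this held for 26.7% of all tested genes, and those of 2 of 3 in MDA-MB-453 (CXCL8 and CXCL16), where it held for 15.0%. For CXCL14 and CXCL8 this was largely set by the filter, so the shares are given as a description. In MDA-MB-453, 1 gene, CXCL8, had an unadjusted p under 0.05. DESeq2 called 0 there, with an adjusted p for CXCL16 and CCL28 and none for CXCL8.

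**Figure D2:**
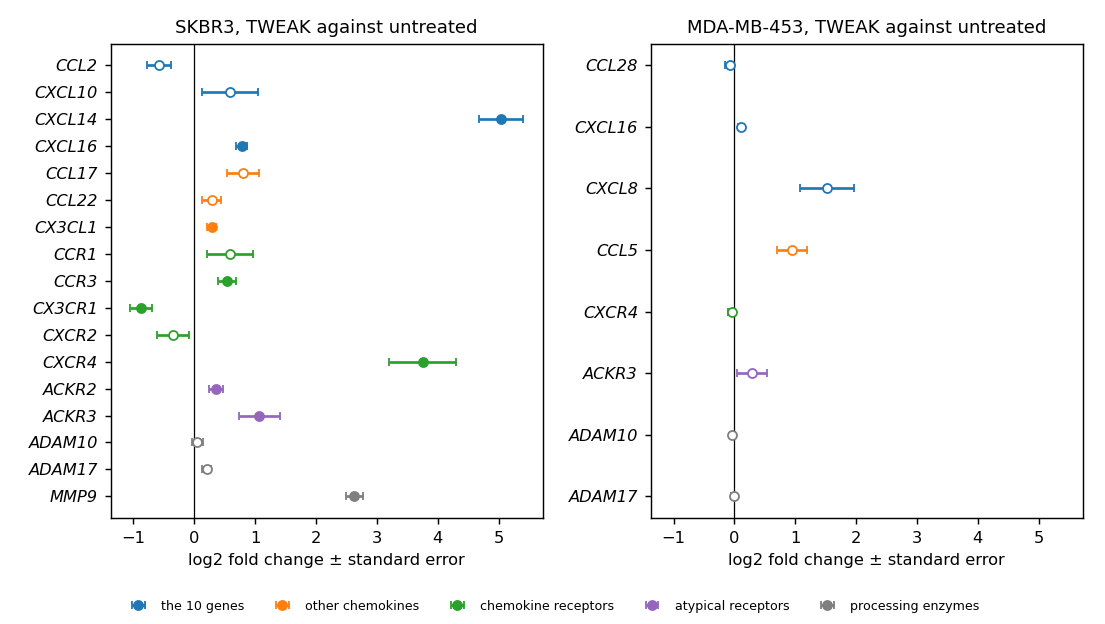
Fitted log2 fold changes (± standard error) of TWEAK-treated against untreated replicates for tested genes of the 10 and of the lists of other chemokines, receptors, atypical receptors and processing enzymes, in SKBR3 (left) and MDA-MB-453 (right). Filled points passed the adjusted p of 0.1; in SKBR3 CXCL14, at 5.04, lies farthest to the right, and in MDA-MB-453 all points are open.

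Before treatment the lines differed in 5 of the 6 tested genes, beside 84.2% of all tested genes. CCL2 and CCL28 passed the filter only through the line where they were high, and so had to differ. CXCL14 passed it through treated SKBR3 alone. Nothing is therefore read from this share about the genes as a group. Untreated MDA-MB-453 had more CXCL16 by 1.90 ± 0.07 (SE) and more CCL28 by 7.07 ± 0.20 on the log2 scale, with edgeR adjusted p of 2.50e-14 and 1.01e-15. The CCL28 difference rests on 5, 2 and 1 counts in untreated SKBR3 and was 7.79 without its replicate 1. CXCL10 was lower in MDA-MB-453 by a log2 fold change of -2.18 ± 0.73 (SE), with an edgeR adjusted p of 0.0109. The difference was -1.48 with an adjusted p of 0.113 without untreated SKBR3 replicate 1. It was -3.30 with an adjusted p of 0.00543 without untreated MDA-MB-453 replicate 3. For CCL2, with 0 counts in untreated MDA-MB-453, SKBR3 was at least 15.9-fold higher (edgeR adjusted p = 4.47e-09). For CXCL14 the edgeR adjusted p was 0.0112, but with 2 to 4 counts in untreated SKBR3 the level there was at least 1.09-fold higher and no more can be said. CXCL8, with 3, 10 and 2 counts in untreated MDA-MB-453 against 2, 1 and 0 in untreated SKBR3, had a fitted log2 fold change of 2.10 ± 1.255 (SE). It moved from 1.14 to 2.89 as libraries were left out, and untreated SKBR3 never exceeded 3 counts. CXCL8 did not pass, with an edgeR adjusted p of 0.132. This depended on the setting: 5 of 15 alternatives called CXCL8, with adjusted p of 0.0799 in DESeq2, 0.0213 without a filter, 0.0325 and 0.0498 without SKBR3 TWEAK-treated replicates 1 and 2, and 0.0912 without untreated MDA-MB-453 replicate 3. Without untreated MDA-MB-453 replicate 2 it was 0.511.

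Compared between genes per kilobase of exon, CXCL16 was the most abundant of the 10 in every group. In untreated SKBR3 it stood at 2.34 ± 0.143 CPM per kb (mean ± SD, n = 3), followed by CCL2 at 0.869 ± 0.102, CXCL10 at 0.321 ± 0.205, CXCL1 at 0.102 ± 0.0143 and CXCL14 at 0.0584 ± 0.0227. The others were at most 0.0536 CPM per kb, and CXCL14 and CCL20 did not differ beyond their spread. With TWEAK, CXCL14 moved to the place below CXCL16 in SKBR3: CXCL16 had 4.03 ± 0.143, CXCL14 1.96 ± 0.548, CCL2 0.584 ± 0.0944 and CXCL10 0.495 ± 0.226 CPM per kb, the last 2 within their spread of each other.

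In untreated MDA-MB-453 the order was CXCL16 at 9.56 ± 0.177, CCL28 at 3.41 ± 0.122, CXCL10 at 0.0766 ± 0.0822 and CXCL8 at 0.0740 ± 0.0639 CPM per kb, and the last 2 did not differ beyond their spread. With TWEAK the same 4 genes led, at 10.3 ± 0.189, 3.24 ± 0.303, 0.405 ± 0.162 and 0.215 ± 0.0292 CPM per kb. Summed over the 10 genes, the level was 9.08 to 9.14 CPM in untreated and 15.9 to 18.4 CPM in treated SKBR3 replicates. The sums were 42.3 to 42.5 CPM in untreated and 43.4 to 46.3 CPM in treated MDA-MB-453 replicates.

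A list of 33 other human chemokine genes, which does not hold PF4, PF4V1 and PPBP, was also examined. Of these, 7 were detected in SKBR3 and 3 were tested there, of which 1 rose, beside 6.60% of all tested genes called higher. CX3CL1, whose protein is a membrane-bound chemokine known as fractalkine, had 2641, 2330 and 2627 counts in untreated and 3080, 3243 and 2677 in treated SKBR3 replicates. In CPM its groups were 95.7 ± 6.98 and 117 ± 9.37 (mean ± SD, n = 3), with a log2 fold change of 0.28 ± 0.08 (SE) and an edgeR adjusted p of 0.0518. The call was lost without untreated replicate 1 (adjusted p 0.245, log2 fold change 0.25), without untreated replicate 2 (0.241, 0.26) and without TWEAK-treated replicate 1 (0.141, 0.27). Per kilobase of exon, untreated SKBR3 had 16.1 ± 1.17 CPM per kb of CX3CL1 against 2.34 ± 0.143 of CXCL16. MDA-MB-453 had 0 to 2 counts of CX3CL1 per library.

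CCL17 and CCL22, both ligands of CCR4, were also tested in SKBR3. CCL17 had 20, 18 and 28 counts without and 32, 48 and 32 with TWEAK, and its log2 fold change of 0.80 ± 0.26 (SE) had an edgeR adjusted p of 0.107, which became 0.0792 without untreated replicate 3 (log2 fold change 1.05), 0.354 without untreated replicate 1 (0.67) and 0.190 without TWEAK-treated replicate 2 (0.59). CCL17 was called in 5 of 13 alternatives. CCL22 had a log2 fold change of 0.28 ± 0.16 (SE) with an edgeR adjusted p of 0.378. CCL5, a T cell and monocyte attractant, was the 1 other chemokine tested in MDA-MB-453. It had 22, 13 and 16 counts in untreated and 34, 34 and 40 in treated replicates there, groups that did not overlap, with a log2 fold change of 0.95 ± 0.24 (SE) and an edgeR adjusted p of 0.109. CCL5 was called in 6 of 13 alternatives, with an adjusted p of 0.0397 without TWEAK-treated replicate 2 (log2 fold change 0.91), 0.0915 without untreated replicate 1 (1.18) and 0.0204 without a filter. With all 12 libraries in 1 fit the adjusted p rose to 0.429, with untreated replicate 2 left out to 0.543 (0.78), and with untreated replicate 3 left out to 0.456 (0.90). In SKBR3, CCL5 had 1, 0 and 0 against 2, 12 and 10 counts. Of the 33 genes, 26 did not exceed 3 counts in any SKBR3 library and 31 did not in any MDA-MB-453 library.

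Of 18 chemokine receptor genes, 5 were tested in SKBR3, and 2 rose and 1 fell, beside 6.60% of all tested genes called higher there and 3.82% lower. CXCR4, the receptor of CXCL12, had 5, 1 and 5 counts in untreated and 56, 71 and 22 in treated SKBR3 replicates, with a log2 fold change of 3.76 ± 0.55 (SE) and an edgeR adjusted p of 0.00127. It passed the filter on low counts through its treated group alone. Without TWEAK-treated replicate 2 its log2 fold change was 3.42. CCR3, a receptor of CCL28 and other ligands, rose by 0.54 ± 0.15 (SE) on the log2 scale in SKBR3 (edgeR adjusted p = 0.0649), and without any 1 untreated replicate or without TWEAK-treated replicate 2 this call was lost, with log2 fold changes of 0.38 to 0.63 over the libraries left out. CX3CR1, the receptor of CX3CL1, fell by 0.87 on the log2 scale (SE 0.18, edgeR adjusted p = 0.0112), from 71, 62 and 60 counts to 41, 33 and 28. CXCR2, the receptor of the neutrophil attractants, had a log2 fold change of -0.35 ± 0.27 (SE) with an edgeR adjusted p of 0.537, and of -0.07 without TWEAK-treated replicate 2. CCR1 had 0.59 ± 0.38 (SE) on the log2 scale with an edgeR adjusted p of 0.436, and 0.33 without untreated replicate 3 or 0.83 without untreated replicate 1.

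In MDA-MB-453 the 1 receptor tested was CXCR4, which was abundant without treatment. Its level was 27.8 ± 0.800 CPM in untreated and 26.9 ± 1.52 CPM in treated replicates (mean ± SD, n = 3), with a log2 fold change of -0.04 ± 0.06 (SE) and an edgeR adjusted p of 0.815. The log2 fold change of CXCR4 was smaller in MDA-MB-453 by a difference of -3.81 ± 0.49 (SE), with an edgeR adjusted p of 0.000163.

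Atypical receptors bind chemokines without classical signalling. In SKBR3, 2 of the 5 were tested and both were called, beside 6.60% of all tested genes called higher, each close to the threshold: ACKR2, which takes up inflammatory CC chemokines, rose by 0.36 ± 0.11 (SE) on the log2 scale (edgeR adjusted p = 0.0869), and ACKR3 rose by 1.07 ± 0.34 (edgeR adjusted p = 0.0970). ACKR3 passed the filter through its treated group alone. In MDA-MB-453, ACKR3 was the 1 atypical receptor tested, with overlapping groups and a log2 fold change of 0.29 ± 0.25 (SE, edgeR adjusted p = 0.698), and its difference between the lines was -0.79 ± 0.42 (edgeR adjusted p = 0.587). ACKR2 lost its call without 5 of the 6 libraries in turn, all but TWEAK-treated replicate 2, and ACKR3 without each of the 6 as well as in DESeq2 and without a filter, with log2 fold changes of 0.29 to 0.46 and 0.89 to 1.26. Of 5 processing enzymes, MMP9, a metalloproteinase that trims several chemokines, rose in SKBR3 from 93, 70 and 110 to 544, 595 and 505 counts, a log2 fold change of 2.63 ± 0.14 (SE) with an edgeR adjusted p of 5.11e-07. ADAM10 and ADAM17, which shed CXCL16 and CX3CL1 from the cell surface, had log2 fold changes of 0.05 ± 0.09 and 0.21 ± 0.08 (SE) in SKBR3 and of -0.03 ± 0.04 and -0.01 ± 0.05 in MDA-MB-453, with edgeR adjusted p of 0.798, 0.167, 0.787 and 0.936. Without TWEAK-treated replicate 2 of SKBR3 both were called there, ADAM10 at 0.16 (adjusted p = 0.0273) and ADAM17 at 0.29 (0.000486). They were also called with GC and length trends removed, at 0.14 (0.0439) and 0.28 (0.00174). Without TWEAK-treated replicate 1 the ADAM10 value was -0.01. In MDA-MB-453, MMP9 had 0 to 3 counts.

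**Figure D3:**
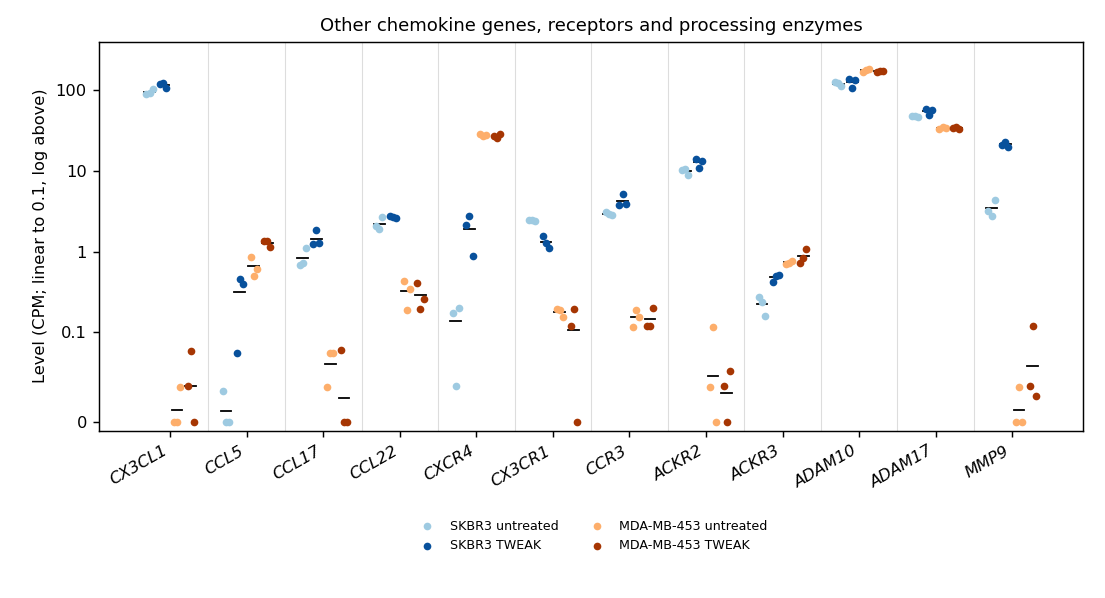
Levels (CPM, axis linear up to 0.1 and logarithmic above) of 12 genes for other chemokines, receptors, atypical receptors and processing enzymes in each of the 12 libraries; points are replicates and black bars group means. Mean CXCR4 went from 0.137 to 1.92 CPM in SKBR3 and was 27.8 and 26.9 CPM in MDA-MB-453, while mean CX3CL1 was 95.7 and 117 CPM in SKBR3 and under 0.0852 CPM, near 0, in MDA-MB-453.

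The TWEAK receptor and NF-κB list gives the transcript levels of pathway genes in the same libraries, not the activity of their proteins. Of its 17 genes, all tested in both lines, 11 rose in SKBR3 (6.60% of all tested genes did), 8 rose in MDA-MB-453 (1.29% of all) and 0 fell in either, with median log2 fold changes of 0.55 and 0.17. NFKB2, which encodes the p100 precursor of the non-canonical pathway, rose by 1.79 ± 0.07 (SE) on the log2 scale in SKBR3 and 1.67 ± 0.05 in MDA-MB-453. RELB, its partner subunit, rose by 1.44 ± 0.12 in SKBR3 and 2.75 ± 0.13 in MDA-MB-453, a difference of 1.30 ± 0.21 (SE) with an edgeR adjusted p of 0.00158. NFKBIA, the inhibitor of NF-κB, rose by 0.70 ± 0.07 and 0.95 ± 0.04 on the log2 scale. NFKB1 rose in SKBR3 by 0.47 ± 0.07 (SE). In MDA-MB-453 it had a log2 fold change of 0.12 ± 0.04 with an edgeR adjusted p of 0.276. With GC and length trends removed NFKB1 was called there, at 0.17 (adjusted p = 0.0246). Its response differed between the lines by -0.36 ± 0.08 (edgeR adjusted p = 0.0147). TNFRSF12A rose by 0.36 ± 0.09 (SE) in SKBR3 (edgeR adjusted p = 0.0322), a call lost without untreated replicate 1 or 2, and had 0.17 ± 0.04 in MDA-MB-453 (edgeR adjusted p = 0.129, and 0.00849 without TWEAK-treated replicate 2). RELA had 0.08 ± 0.07 and -0.03 ± 0.04 on the log2 scale and was called in neither line.

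Markers of other cells were measured in the same libraries. Beside the 6.60% of all tested genes called higher in SKBR3 and 1.29% in MDA-MB-453, 1 leukocyte marker of 3 tested in SKBR3 and 1 of 1 tested in MDA-MB-453 rose, and 1 endothelial marker of 2 tested in SKBR3. Of 6 leukocyte markers, ITGAM, an integrin subunit of myeloid cells, rose in both lines, from 20, 14 and 26 to 588, 553 and 605 counts in SKBR3 (log2 fold change 4.90 ± 0.15 (SE), edgeR adjusted p = 2.22e-08) and from 3, 0 and 3 to 35, 41 and 43 in MDA-MB-453 (4.10 ± 0.43, 8.77e-05), where it passed the filter through its treated group alone. The summed level of the leukocyte markers was 1.90 to 2.29 CPM in untreated and 22.7 to 25.1 CPM in treated SKBR3, and 0.153 to 0.545 and 1.39 to 1.96 CPM in MDA-MB-453. PTPRC, the common leukocyte antigen, had 2 to 5 counts per SKBR3 library and 1 to 4 per MDA-MB-453 library, CD3E had 0 to 2, and no leukocyte marker besides ITGAM was called. Of 3 endothelial markers, CDH5 rose in SKBR3 by 1.26 ± 0.18 (SE) on the log2 scale (edgeR adjusted p = 0.000855), while VWF had -0.10 ± 0.16 and PECAM1 0 to 2 counts. Summed endothelial levels were 3.73 to 4.90 CPM in untreated and 6.12 to 7.35 CPM in treated SKBR3, and 0.305 to 0.545 and 0.201 to 0.588 CPM in MDA-MB-453. The 4 fibroblast markers summed to 17.3 to 20.1 and 16.8 to 17.8 CPM in SKBR3 and to 122 to 128 and 112 to 118 CPM in MDA-MB-453, nearly all of it COL1A1, with DCN at 0 or 1 count. The part of these genes in the chemokine results was not tested.

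For CXCL14 and CXCL16, the genes with the most similar pattern over the 12 libraries were sought among 17200 others, as the 3 with the smallest root mean square difference of log2 CPM after each gene's mean was subtracted. For CXCL14 these were SLC28A3, a nucleoside transporter gene (0.43), CLEC7A, which encodes the receptor dectin-1 (0.43), and KANK4 (0.60), where the median over all genes was 2.37. SLC28A3 rose from 0.0609 ± 0.0369 to 3.26 ± 0.496 CPM in SKBR3, and CLEC7A from 0.165 ± 0.0641 to 4.91 ± 0.950 CPM. For CXCL16 they were RASSF3 (0.06), ANXA2, which encodes annexin A2 (0.10), and SLFN5 (0.10), where the median was 0.92. RASSF3 had 6.30 ± 0.312 and 11.5 ± 0.894 CPM in SKBR3 and 26.6 ± 1.35 and 29.1 ± 1.75 CPM in MDA-MB-453, untreated and treated in that order. The genes were chosen for this likeness, and their values are a description with no test.

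**Figure D4:**
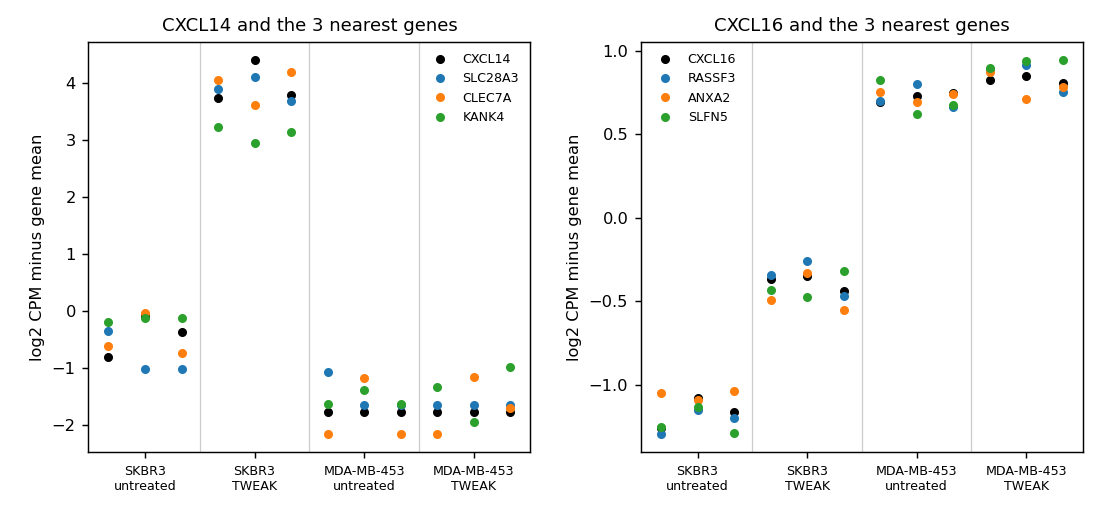
Log2 CPM minus each gene's own mean over the 12 libraries (vertical axis) for CXCL14 (left) and CXCL16 (right) with the 3 most similar genes, by group, each point 1 replicate. The CXCL14 set is high in the 3 TWEAK-treated SKBR3 replicates alone, and the CXCL16 set steps up from untreated to treated SKBR3 and again to MDA-MB-453.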

How the data were processed

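RNA-seq of SKBR3 and MDA-MB-453 was used, 3 untreated and 3 TWEAK-treated biological replicates per line, grouped by the sample labels. The authors deposited raw counts per gene, without normalisation. According to their methods, adaptors were trimmed with Trimmomatic, reads were mapped to hg38 with STAR and counted with featureCounts. The submitters' processing notes name the same tools and DESeq2. Strand setting, annotation release and treatment of multi-mapping reads are not given in the sources used here, and the labels name a DNA library kit where the methods name a directional RNA kit. Identifiers were matched to GENCODE release 44, where 62672 of 62696 had a symbol.

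The 6 libraries of a line were tested together in edgeR 4.0.16 under R 4.3.3 (filterByExpr, TMM, two-sided quasi-likelihood F test, Benjamini-Hochberg adjusted p of at most 0.1 over all genes tested). Differences between lines came from a fit of all 12 libraries. Fitted fold changes contain the edgeR prior count (0.125), and intervals of log2 fold changes are 1.96 standard errors to either side. That multiple takes no account of the small number of libraries, so these intervals are too narrow. CPM within a line use its TMM factors. Bounds take 3 counts per library as the floor. The p-values measure the spread between these replicates. The 10 genes and all lists were chosen with earlier results of these data known. Named were the 10, tested members of the lists for other chemokines, receptors and processing enzymes, 6 NF-κB pathway genes and the 3 most similar patterns. TRAF2, NFKBIE, TNFAIP3 and KRT19 were also named in the closing section, after their values were seen, because their response differed between the lines. ITGAM, CDH5, PTPRC, CD3E, VWF, PECAM1, COL1A1 and DCN come from the marker lists. CCL5 in SKBR3 and MMP9 in MDA-MB-453 are given as counts only.

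Alternatives were DESeq2 size factors, DESeq2 1.42.0, no filter, at least 10 counts in every library, all 12 libraries in 1 fit, a replicate block, removal of GC and length trends, an adjusted p of 0.05 and each library left out. The ratio of summed counts with an exact interval was chosen after seeing the data. The edgeR script was tested on simulated data. Depth was 24773003 to 35208304 counts per library.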

Additional observations from a re-analysis of the deposited data

Results flagged for a closer look

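In 8 genes of the lists the response to TWEAK differed between the lines by the interaction test in edgeR, beside 3.37% of all 17201 genes tested. They were 1 of the 6 chemokine genes tested, 1 of 5 receptors, 5 of 17 pathway genes and 1 of 9 markers of the lines. Taken as MDA-MB-453 minus SKBR3, the difference of the log2 fold changes was -0.69 for CXCL16 (edgeR adjusted p = 0.000292), -3.81 for CXCR4 (0.000163), -0.36 for NFKB1 (0.0147) and 1.30 for RELB (0.00158). These 4 kept their direction and their call over the alternatives run. It was -0.75 for TRAF2 (edgeR adjusted p = 6.05e-05), -0.77 for NFKBIE (0.000782), 1.15 for TNFAIP3 (0.0207) and -0.35 for KRT19 (0.0939), for which alternatives were not run.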

How the results depend on the processing

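CXCL14 and CXCL16 were called higher in SKBR3 in every alternative in which they were tested. An adjusted p of 0.05 as the threshold left the calls of the 10 genes as they were. In SKBR3 it ended those of CX3CL1 (edgeR adjusted p 0.0518), KRT19 (0.0608), CCR3 (0.0649), ACKR2 (0.0869) and ACKR3 (0.0970). The difference of the KRT19 response between the lines (0.0939) was no longer called either. Where every library had to hold at least 10 counts, 1 of the 10 genes (CXCL16) was called in SKBR3 and 1 (CXCL16) differed between the untreated lines, because most others were not tested. In MDA-MB-453 the number called was 2 without a filter on low counts (CXCL8 and CXCL10), 1 with the replicate block (CXCL8, adjusted p 0.0671), and 0 to 1 when each library was left out. DESeq2 gave 2 genes whose response differed between the lines, CXCL14 (adjusted p 0.0732) beside CXCL16. For CXCL14 edgeR had no usable estimate, since MDA-MB-453 held 0 counts of it in every library. Of 273 single values of the 10 genes under alternatives, 260 kept direction and side of the threshold, 10 newly passed it and 1 no longer passed it. The other 2 were uncalled differences of the CXCL8 response between the lines, -0.90 with all libraries, which changed sign to 2.33 without SKBR3 TWEAK-treated replicate 1 and to 0.06 without untreated MDA-MB-453 replicate 2.

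A pairing of the samples by replicate number was not seen in SKBR3, and in MDA-MB-453 it was not settled. The correlation of deviations between equal numbers was 0.171, -0.146 and -0.237 for SKBR3 and 0.127, 0.130 and 0.0234 for MDA-MB-453. In SKBR3 not every sample correlated best with its own number, and the highest value, 0.350, was between untreated replicate 3 and the outlying TWEAK-treated replicate 2. With so few replicates this check cannot exclude a pairing. In MDA-MB-453 every sample did, which is a hint from the data. The study states that cell line experiments were repeated on separate days, but not that a replicate number marks a day. With the block, 824 genes were called higher and 387 lower in SKBR3 (1034 and 599 without), and 490 and 404 in MDA-MB-453 (192 and 31). The block ended the SKBR3 calls of CX3CL1 (adjusted p 0.126), ACKR2 (0.142) and ACKR3 (0.189), and in MDA-MB-453 it added calls of CCL5 (0.0360), NFKB1 (0.0782) and TNFRSF12A (0.0200).

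Over all genes, counts of calls higher and lower in SKBR3 were 1525 and 1133 with GC and length trends removed, 1507 and 1068 with all 12 libraries in 1 fit, and 1589 and 1191 without TWEAK-treated replicate 2. In MDA-MB-453 they were 302 and 178 without a filter, and 1003 and 1098 without TWEAK-treated replicate 2. Genes near 3 counts limit the detection of all of the 10 genes but CXCL16 in at least 1 line.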
